A study of Mus musculus with 6 samples.

Results

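The genes described here carry the Th1 program of CD4 T cells: the cytokine IFN-γ, the transcription factors that direct its production, the IL-12 receptor that induces them, a Th1 homing receptor and the receptor for IFN-γ. They were the 10 rows of the deposited count table whose symbol was Tbx21, Ifng, Eomes, Il12rb1, Il12rb2, Stat4, Cxcr3, Ifngr1, Ifngr2 or Hopx, of 28430 symbols in all. No measured value entered the choice, although the list was drawn up with earlier results of these data known. All 10 had enough reads to be tested, among 15694 genes that were.

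The material was bulk RNA of sorted hepatic CD4 T cells, sequenced as 3 libraries each from WT mice and from mice without Nr4a1 and Nr4a2 in T cells (Nr4a1 fl/fl Nr4a2 fl/fl Cd4Cre, dKO). By the study's account, the WT and the dKO mice all received a choline-deficient, high-fat diet (60 kcal% fat, 0.1% methionine) for 8 weeks, which induces steatohepatitis. Cre under the Cd4 promoter acts from the thymic stage at which CD4 and CD8 are both expressed, so the deletion covers CD8 T cells as well as CD4 T cells. The labels give neither age nor sex. The comparison asks whether loss of these nuclear orphan receptors in T cells goes with a different level of the Th1 genes in the diseased liver.

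IL-12 from antigen-presenting cells binds a receptor made of the Il12rb1 and Il12rb2 chains and activates STAT4. STAT4 and T-bet, the product of Tbx21, then switch on Ifng and Cxcr3. Secreted IFN-γ acts through the Ifngr1 and Ifngr2 chains and the kinases JAK1 and JAK2, and its signal induces T-bet and a large set of defence genes in the cells that receive it. Th1 cells are known for IFN-γ production in the inflamed liver, and for carrying little of the Ifngr2 chain.

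Levels are given as normalised CPM, which are counts relative to the library's total after scaling of the library sizes. Fold changes are log2 of dKO over WT with the SE, and adjusted p values are from edgeR's quasi-likelihood test with Benjamini-Hochberg adjustment over every tested gene. A gene was called at an adjusted p under 0.05. The libraries held 5747744 to 11078184 counted reads, and the 10 genes were covered by between 91 reads (Il12rb2 in WT 1) and 6918 reads (Ifngr1 in WT 3). The transcripts of the T cell genes Cd3d, Cd3e, Cd3g, Cd4, Cd5 and Lck were abundant in every library, and 0 of these 6 differed by the test. All but Cd4 are also expressed by CD8 T cells. Cd4 was 377 ± 29.8 CPM in WT and 405 ± 22.9 CPM in dKO, while Cd8a was 126 and 194 CPM. The targeted genes were not low in the libraries labelled dKO. Nr4a1 was 609.7 ± 253 CPM in WT and 797 ± 210.4 in dKO (SD, n = 3 each; adjusted p = 0.650). Nr4a2 was higher in dKO, at 471 ± 74.7 against 227 ± 63.1 CPM (log2 fold change 1.05, SE 0.21, adjusted p = 0.0308), a call that was lost on omission of WT 3, dKO 1 or dKO 2, with an adjusted p of 0.0789 to 0.128. Reads summed over a whole gene do not check a deletion of part of it, so the labels could not be checked from these transcripts.

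The sequence just upstream of the start was read for the genes that had an entry in RefSeq (GRCm38.p6), which were 9 of the 10. Il12rb1 had none. In the 250 bases before the start, 3 motifs were searched on both strands: AAAGGTCA, the response element NBRE to which Nr4a proteins bind, GGTGTGA, bound by T-box factors such as T-bet, and TTCNNNGAA, the gamma-activated sequence (GAS) bound by STAT proteins such as STAT4. Among 32851 upstream windows of the same length in the table, 1.34% held the NBRE, 3.33% the T-box motif and 7.02% the GAS motif. Among the Th1 genes, the GAS motif was found in the windows of Ifng, at position -249 from the start, and of Il12rb2, at position -123. No NBRE or T-box letters were found in the windows of the 9 genes. The windows of the cytokine and of the inducible IL-12 receptor chain are shown with the GAS letters in capitals, and that of Tbx21, the lineage regulator, is shown beside them and held no match. They lie at chr10:118440796-118441045 (plus strand), chr6:67376189-67376438 (minus strand) and chr11:97115332-97115581 (minus strand), and are written 5′ to 3′.
Ifng: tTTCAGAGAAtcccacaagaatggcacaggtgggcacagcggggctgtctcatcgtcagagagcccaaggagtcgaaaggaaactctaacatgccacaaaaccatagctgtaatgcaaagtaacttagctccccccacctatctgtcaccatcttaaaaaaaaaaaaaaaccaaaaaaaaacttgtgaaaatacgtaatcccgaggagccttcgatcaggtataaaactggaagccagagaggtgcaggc
Il12rb2: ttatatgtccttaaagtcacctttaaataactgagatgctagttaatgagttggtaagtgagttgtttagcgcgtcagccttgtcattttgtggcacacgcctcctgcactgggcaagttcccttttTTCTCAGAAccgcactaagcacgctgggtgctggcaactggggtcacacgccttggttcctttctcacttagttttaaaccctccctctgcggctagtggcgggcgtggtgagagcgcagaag
Tbx21: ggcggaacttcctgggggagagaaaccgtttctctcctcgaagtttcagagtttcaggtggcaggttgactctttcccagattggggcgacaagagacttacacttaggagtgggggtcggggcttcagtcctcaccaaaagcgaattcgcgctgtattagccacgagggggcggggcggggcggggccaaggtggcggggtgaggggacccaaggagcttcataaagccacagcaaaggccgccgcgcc
A match of this kind describes the letters of the window and not an occupied site.

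None of the 10 genes differed between dKO and WT at an adjusted p under 0.05. Over all genes tested, 2.15% were called higher and 1.17% lower in dKO. The estimates went both ways, with 6 genes above and 4 below 0 and a median log2 fold change of 0.12, against -0.01 for all genes tested. Of the 10, Cxcr3, Eomes and Hopx had an unadjusted p under 0.05 by edgeR, where 19.2% of all genes did. The groups did not overlap for Hopx, higher in dKO (13.2% of all genes were separated in that direction), or for Cxcr3, lower in dKO (11.7%). The smallest p that exact permutation of 3 against 3 libraries allows is 0.1, and such a test was not run. In bulk RNA from sorted cells, fewer cells of a type and less RNA per cell cannot be told apart.

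**Figure D1:**
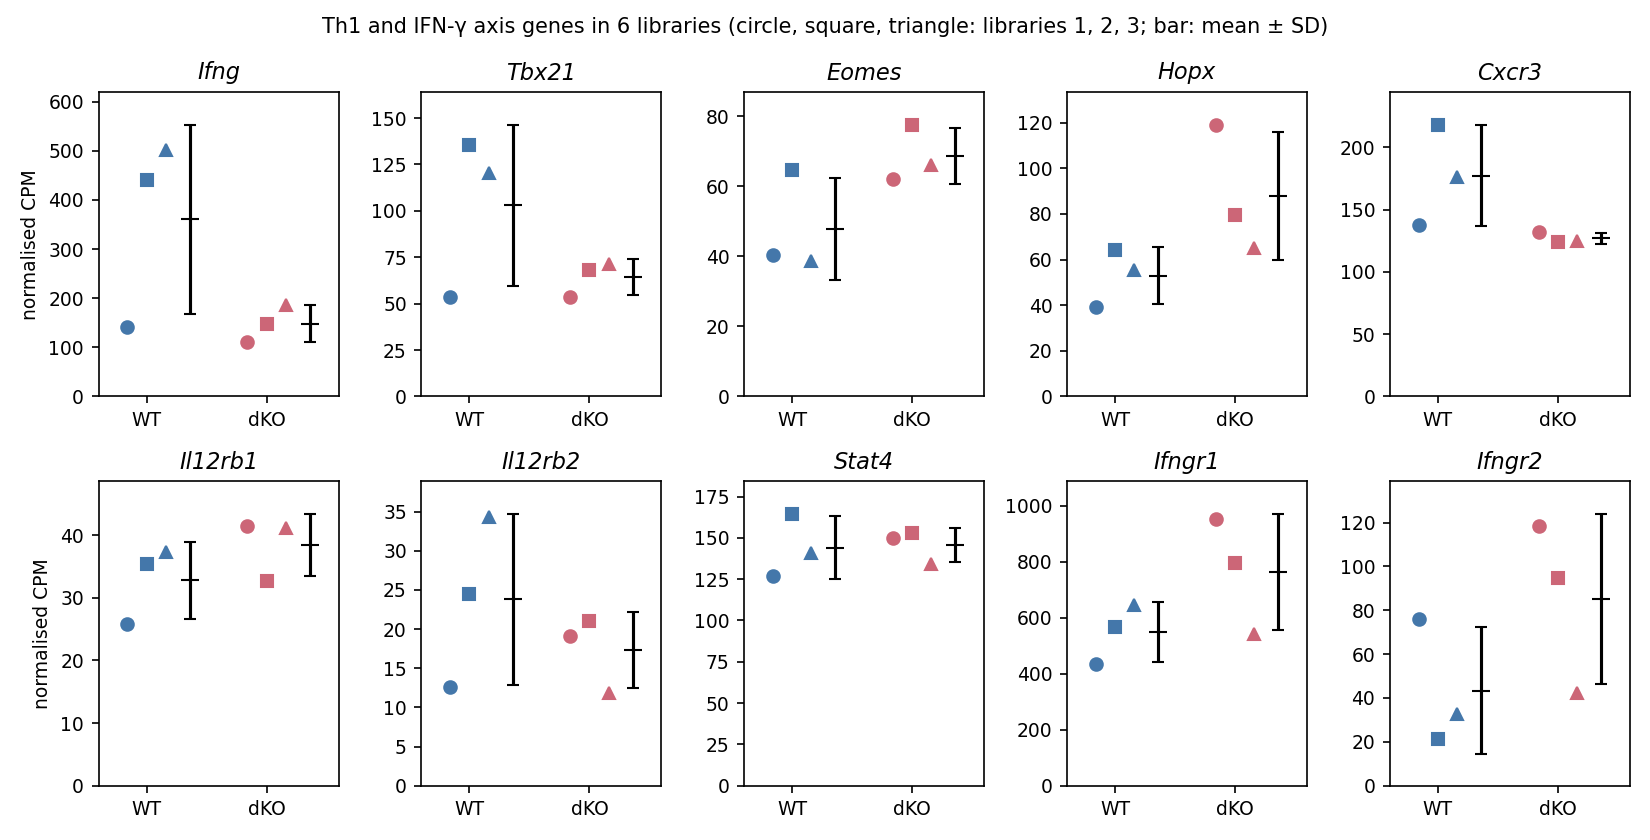
Level of each of the 10 genes (y axis, normalised CPM, each panel with its own scale from 0) in the 3 WT and 3 dKO libraries; symbols mark the library number and the bar gives the mean ± SD. For Ifng, Tbx21 and Cxcr3 the WT 2 and WT 3 libraries stand above the rest, while WT 1 lies at 142, 53.8 and 138 CPM, close to the dKO libraries.

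Ifng encodes the signature cytokine of Th1 cells and lies on chromosome 10 (118441046 to 118445892, plus strand, GRCm38). WT 1 to WT 3 held 142, 439.8 and 501 CPM of it, and dKO 1 to dKO 3 held 110.2, 147 and 185 CPM. WT 2 and WT 3 were thus well above every dKO library, whereas WT 1 fell among them. The means were 361 ± 192 CPM in WT and 148 ± 37.6 CPM in dKO (SD, n = 3 each). The log2 fold change of -1.29 (SE 0.55, 95% interval -2.74 to 0.17) did not pass the test (adjusted p = 0.308). Within WT alone the highest library exceeded the lowest 3.54-fold, against 1.68-fold within dKO.

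Tbx21 encodes T-bet, the master regulator of the Th1 lineage (chromosome 11, 97098071 to 97115331, minus strand). It was 53.8, 135 and 120.1 CPM in the WT libraries and 53.6, 68.0 and 71.5 CPM in the dKO libraries. The order of the libraries was like that of Ifng, with WT 2 and WT 3 high and WT 1 next to dKO 1. The means of 103 ± 43.4 and 64.4 ± 9.51 CPM gave a log2 fold change of -0.68 (SE 0.36, 95% interval -1.60 to 0.24, adjusted p = 0.393).

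Cxcr3 encodes the chemokine receptor that T-bet induces and that draws Th1 cells to inflamed tissue (chromosome X, 101731535 to 101734269, minus strand). Its level was 138, 218 and 176 CPM in WT and 132, 124 and 125 CPM in dKO. Every WT library was above every dKO library, although WT 1 was so by little. The dKO libraries varied 1.06-fold from lowest to highest and the WT libraries 1.58-fold. Cxcr3 came nearest to the threshold of the 10 genes (log2 fold change -0.48, SE 0.15, 95% interval -0.80 to -0.16, adjusted p = 0.0940).

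WT 1 decided these 3 results. Without it, Ifng, Tbx21 and Cxcr3 were called lower in dKO and 0 of the 10 genes were called higher, while over all 16271 genes then tested 2.32% were called lower and 2.75% higher. Ifng was then 0.313 times its WT level (log2 fold change -1.67, 95% interval -2.11 to -1.24, adjusted p = 0.00196). The value for Tbx21 was -0.99 (95% interval -1.26 to -0.72, adjusted p = 3.02e-04). For Cxcr3 it was -0.64 (95% interval -0.89 to -0.40, adjusted p = 0.00403). Leaving out WT 1 was one of several omissions made, and no measure recorded in the labels sets this library apart. In a principal component analysis of all genes tested, the first component held 42.2% of the variance and separated the groups. WT 1 to WT 3 lay at -33.7, -22.2 and -23.5 on it, and dKO 1 to dKO 3 at 38.2, 23.4 and 17.8. WT 1 was thus the WT library furthest from dKO on that component. On the second component, which held 20.6% of the variance, WT 1 and WT 2 lay at the opposite ends, at 33.8 and -27.9.

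**Figure D2:**
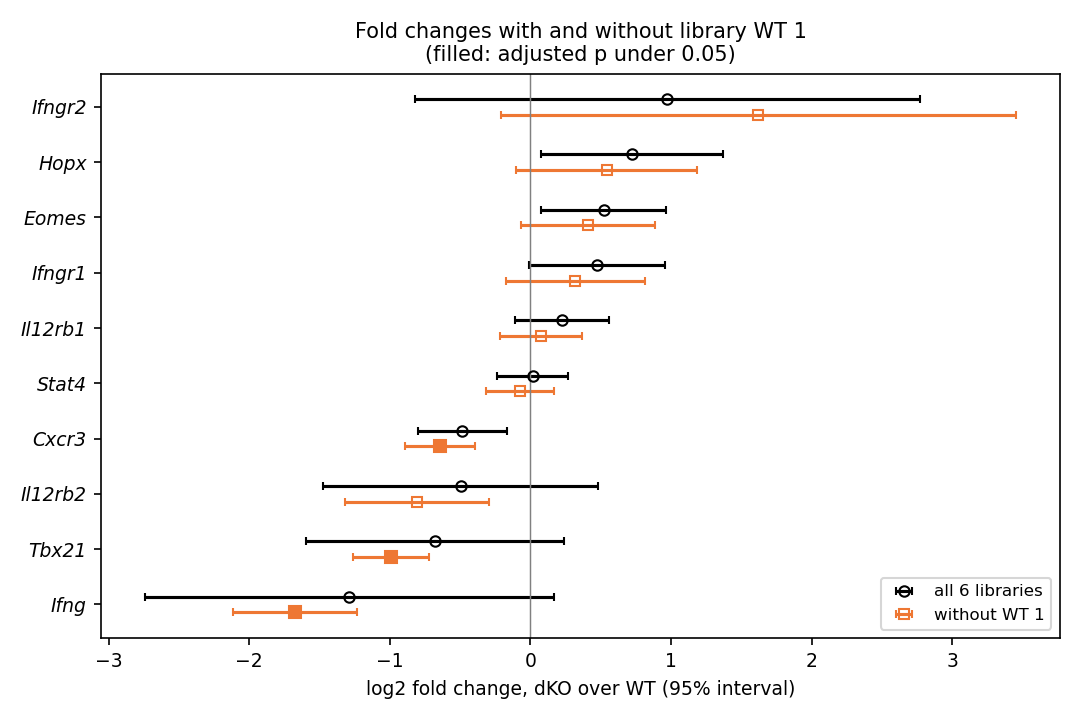
Log2 fold change of dKO over WT (x axis) with its 95% interval for the 10 genes, from all 6 libraries (black circles) and without WT 1 (orange squares); filled symbols have an edgeR adjusted p under 0.05. With all libraries 0 of the 10 symbols are filled, and without WT 1 those of Cxcr3, Tbx21 and Ifng are filled, at -0.64, -0.99 and -1.67.

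Other transcripts also set WT 1 apart from WT 2 and WT 3. The summed level of the Y-linked genes Ddx3y, Kdm5d, Uty and Eif2s3y was 513 and 589 CPM in WT 2 and WT 3 and 467 in dKO 2, but 93.9 in WT 1, 65.7 in dKO 1 and 80.6 in dKO 3. Xist, the transcript of the inactive X chromosome, was 133 and 97.1 CPM in WT 2 and WT 3, 796 in dKO 2 and 1656 to 1914 CPM in the other libraries. Transcripts of male and of female cells were thus unequally represented among the libraries, and in dKO 2 both were abundant. Of the libraries low in Y-linked transcripts, dKO 1 and dKO 3 differed from WT 1 by 0.01 in Ifng, 0.20 in Tbx21 and -0.10 in Cxcr3 (difference of mean log2 levels). Among those high in them, dKO 2 differed from WT 2 and WT 3 by -1.67, -0.91 and -0.66. Each of these contrasts has 1 library on a side and no test. With the Y-linked level as a covariate, the log2 fold change was -0.65 for Ifng (adjusted p = 0.664), -0.24 for Tbx21 (adjusted p = 0.744) and -0.36 for Cxcr3 (adjusted p = 0.275).

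The summed level of 10 stress and dissociation genes, among them Fos, Jun and the heat shock gene Hspa1a, followed Ifng more closely. It was 16004 and 21480 CPM in WT 2 and WT 3, 9932 and 10922 CPM in dKO 2 and dKO 3, and 5297 and 5579 CPM in WT 1 and dKO 1. With this level as a covariate, Ifng was called lower in dKO (log2 fold change -0.66, adjusted p = 0.0161), while Tbx21 (-0.29, adjusted p = 0.312) and Cxcr3 (-0.38, adjusted p = 0.157) were not. The covariates were chosen after the data were seen. The part of sex and of handling stress in the Th1 genes was not tested beyond these values.

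**Figure D3:**
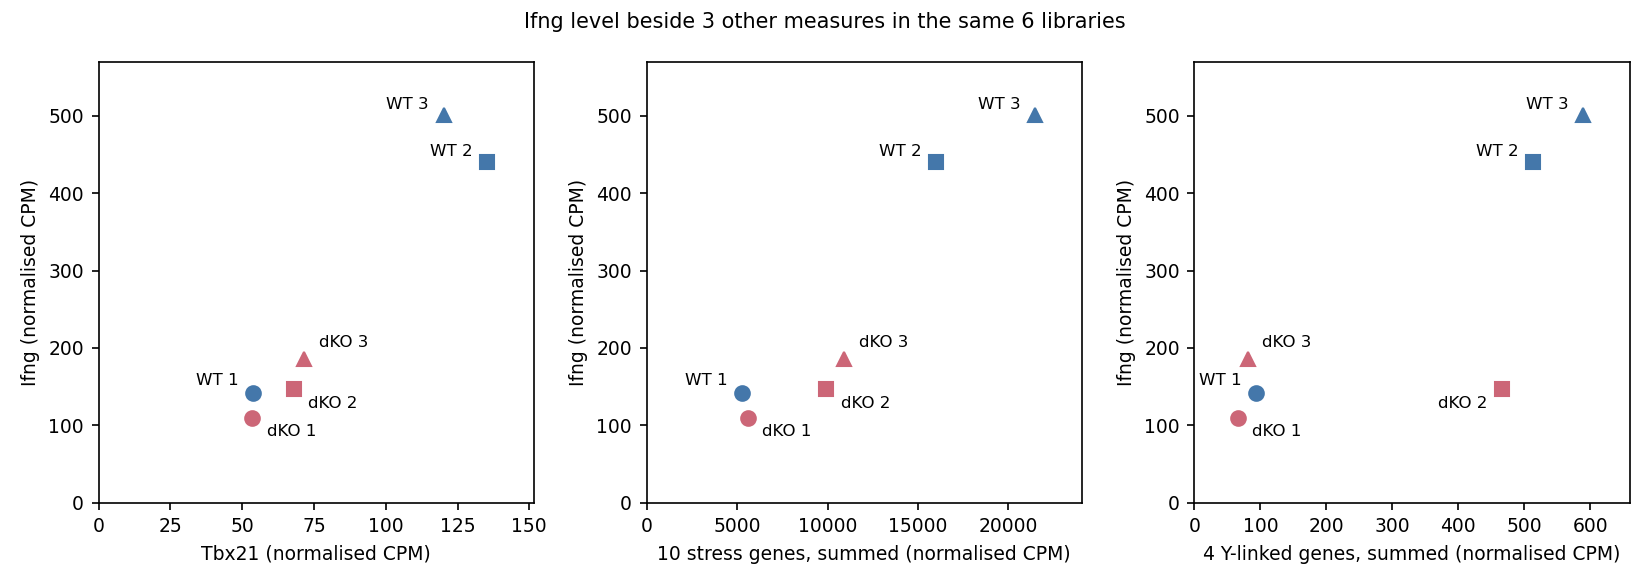
Ifng (y axis, normalised CPM) in each library against Tbx21, against the sum of 10 stress genes and against the sum of 4 Y-linked genes (x axes, normalised CPM); blue points are WT and red points dKO. WT 2 and WT 3 lie apart at the upper right of all panels, and dKO 2 has a Y-linked sum of 467 CPM with Ifng at 147 CPM.

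Eomes encodes Eomesodermin, a T-box factor related to T-bet that drives IFN-γ and cytotoxic genes in memory CD8 T cells and NK cells (chromosome 9, 118478212 to 118486132, plus strand). Its estimate was above 0, opposite in sign to that of Tbx21. The levels were 40.3, 64.6 and 38.7 CPM in WT and 62.0, 77.6 and 66.2 CPM in dKO, so that the groups overlapped only through WT 2. The log2 fold change was 0.52 (SE 0.20, 95% interval 0.08 to 0.96, adjusted p = 0.186). Without WT 2 it was called higher (0.80, adjusted p = 0.00650), whereas without WT 1 it was not (0.41, adjusted p = 0.332).

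Hopx encodes a homeodomain-only cofactor known for sustaining T-bet-dependent effector memory Th1 cells (chromosome 5, 77086988 to 77115121, minus strand). It was 39.3, 64.2 and 55.3 CPM in WT and 119, 79.5 and 65.1 CPM in dKO. All dKO libraries were above all WT libraries, but dKO 3 exceeded WT 2 by less than 1 CPM. The log2 fold change of 0.72 (SE 0.27, 95% interval 0.07 to 1.37) did not pass edgeR's test (adjusted p = 0.213), and it passed that of DESeq2 (0.72, adjusted p = 0.0281). Eomes and Hopx thus both had estimates above 0 while Tbx21 was below 0.

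Of the genes of IL-12 sensing, 0 passed the test. Stat4, the transcription factor that relays the IL-12 signal, had nearly the same level in each group, with 127, 165 and 141 CPM in WT and 149.9, 153 and 134 CPM in dKO. Its log2 fold change was 0.02 (SE 0.12), and the 95% interval of -0.24 to 0.27 was the narrowest of the 10 genes. Il12rb1, the chain shared with the IL-23 receptor, was 25.8, 35.3 and 37.2 CPM in WT and 41.4, 32.7 and 41.1 CPM in dKO (log2 fold change 0.23, 95% interval -0.11 to 0.56, adjusted p = 0.462). The groups overlapped for Stat4 and Il12rb1 alike.

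Il12rb2, the chain whose expression sets responsiveness to IL-12, was lowest in dKO 3 and highest in WT 3. It was 12.6, 24.5 and 34.3 CPM in WT and 19.1, 21.1 and 11.8 CPM in dKO. The log2 fold change was -0.50 (SE 0.40, 95% interval -1.47 to 0.48, adjusted p = 0.577). WT 1 was again the low WT library, and without it the value was -0.80 (adjusted p = 0.0768).

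The receptor chains for IFN-γ had estimates above 0. Ifngr1, the ligand-binding chain (chromosome 10, 19591949 to 19610229, plus strand), was 435, 568 and 647 CPM in WT and 954, 796 and 541 CPM in dKO. Only dKO 3 fell within the WT range. The log2 fold change was 0.47 (SE 0.22, 95% interval -0.01 to 0.96, adjusted p = 0.269).

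Ifngr2, the signalling chain (chromosome 16, 91547072 to 91565623, plus strand), was 76.2, 21.1 and 32.8 CPM in WT and 118, 94.8 and 42.3 CPM in dKO. It had the widest spread of the 10 genes, 5.61-fold from WT 2 to dKO 1, and was low in the WT libraries that were high in Ifng. The log2 fold change was 0.97 (SE 0.67, 95% interval -0.82 to 2.77, adjusted p = 0.526) and without WT 1 it was 1.62 (adjusted p = 0.296). On a scale per exon length, the level of Ifngr1 exceeded that of Ifngr2 by 35.6-fold in WT 2 and 26.1-fold in WT 3. The corresponding ratio was 7.55 in WT 1, 10.7 in dKO 1, 11.1 in dKO 2 and 16.9 in dKO 3, so that WT 1 lay below all dKO libraries and the other WT libraries above them.

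Levels were compared between genes as normalised CPM per kilobase of exon, with lengths from GENCODE M21. In WT, Ifng had the highest mean (279 ± 149), followed by Ifngr1 (193 ± 37.7), which lay within its spread. Cxcr3 (102 ± 23.3) was separate from both neighbours in that order. Tbx21 (41.4 ± 17.4), Stat4 (37.2 ± 4.93) and Hopx (34.9 ± 8.31) overlapped each other. Eomes (11.5 ± 3.49), Ifngr2 (11.5 ± 7.71), Il12rb1 (7.99 ± 1.49) and Il12rb2 (6.28 ± 2.87) formed the low end, each overlapping the next. In dKO the order began with Ifngr1 (268 ± 73.2), Ifng (114 ± 29.0) and Cxcr3 (73.3 ± 2.52). Hopx (58.0 ± 18.5), which overlapped Cxcr3, preceded Stat4 (37.6 ± 2.64) and Tbx21 (25.9 ± 3.82). Ifngr2 (22.6 ± 10.3) overlapped Tbx21 and Eomes (16.5 ± 1.95), and Il12rb1 (9.36 ± 1.20) and Il12rb2 (4.57 ± 1.29) were last and separate from each other.

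The genes whose log2 level over the 6 libraries was most like that of Ifng, among 9510 genes with a mean of at least 10 CPM, were Itgal (r = 0.991), which encodes the αL chain of the integrin LFA-1, Antxr2 (r = 0.990) and Sertad3 (r = 0.985). Itgal was 325, 387 and 408 CPM in WT and 309, 317 and 334 CPM in dKO. For Tbx21 they were Gabbr1 (r = 0.986), Klhl17 (r = 0.984) and Dynll2 (r = 0.983). These coefficients describe 6 points in which WT 2 and WT 3 stood apart, and 39 genes had an r above 0.95 with Ifng and 35 with Tbx21.

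Of the other regulators of the Th1 program, 5 are reported here and 0 of them passed edgeR's test in either direction. Bhlhe40 and Zeb2 had an unadjusted p under 0.05, where 19.2% of all genes did. Both were higher in every dKO library than in any WT library, as were 13.2% of all genes. Bhlhe40, which sustains IFN-γ production by limiting IL-10, had a value of 0.66 (adjusted p = 0.162), Id2 of 0.44 (adjusted p = 0.597) and Irf1 of -0.01 (adjusted p = 0.982). WT 1 was the low WT library for Id2 and Irf1 too. In WT 1 to WT 3, Id2 was 275, 575 and 606 CPM and Irf1 was 180, 326 and 322 CPM. The 5 reported cytokine and chemokine receptors of Th1 cells did not pass edgeR's test either. Il2rb alone had an unadjusted p under 0.05, and it alone was separated between the groups, with dKO higher. Il2rb was 0.49 (adjusted p = 0.0816) and Il18r1 -0.04 (adjusted p = 0.924). Cxcr6, a receptor of liver-resident T cells, was 143, 270.01 and 305 CPM in WT and 151, 158 and 182 CPM in dKO (-0.55, adjusted p = 0.344), with WT 1 low as for Ifng, and was called lower without WT 1 (-0.82, adjusted p = 7.12e-04).

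Products of activated T cells moved in both directions, with 2 of 9 tested genes higher and 3 lower in dKO (2.15% and 1.17% of all genes tested). Il2, whose product drives T cell growth, fell from 23.1 ± 4.30 to 6.81 ± 2.18 CPM (log2 fold change -1.75, SE 0.23, adjusted p = 0.00187). Lta, which encodes lymphotoxin α and is a product of Th1 cells, fell from 28.7 ± 2.18 to 11.9 ± 2.11 CPM (-1.25, SE 0.16, adjusted p = 0.00154). Ly6c2, a surface protein of effector and memory T cells, fell from 121 to 70.1 CPM (-0.80, adjusted p = 0.0130), a call lost without dKO 1 (adjusted p = 0.0756). The chemokines Ccl4 (1.45, adjusted p = 0.00350) and Ccl5 (1.16, adjusted p = 0.00484), which attract T cells, rose. In these genes WT 1 lay with the other WT libraries: Lta was 29.96, 30.00 and 26.2 CPM in WT and 10.2, 11.3 and 14.3 CPM in dKO. Tnf, by contrast, was 28.3, 67.3 and 93.0 CPM in WT and 21.1, 42.7 and 36.5 CPM in dKO (-0.92, adjusted p = 0.442). Nkg7, a gene of cytotoxic granules, did not pass the test either (-0.01, adjusted p = 0.992).

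Signalling below the IL-12 and IFN-γ receptors had a median log2 fold change of 0.12 over 9 reported genes. Called higher in dKO were 2 of them and lower 0 (2.15% and 1.17% of all genes tested). These were Jak2, the kinase bound to the Ifngr2 chain (245 ± 19.5 to 385 ± 77.7 CPM, log2 fold change 0.65, adjusted p = 0.0286), and Stat3, which relays IL-6 and IL-10 signals (202 ± 16.7 to 333 ± 51.9 CPM, 0.72, adjusted p = 0.0114). Jak2 was not called on omission of WT 3, dKO 1 or dKO 2, with an adjusted p of 0.0926 to 0.143, nor Stat3 without dKO 1 or dKO 2 (adjusted p 0.0690 to 0.0756). Jak1, the kinase bound to Ifngr1, was 762 ± 116 and 829.7 ± 60.2 CPM (0.12, adjusted p = 0.686). The feedback inhibitor Socs1 was 51.1, 85.7 and 86.6 CPM in WT and 50.01, 65.3 and 57.8 CPM in dKO, with WT 1 low as for Ifng, and was called lower only among the leave-one-out fits without WT 1 (-0.58, adjusted p = 0.01004).

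Among genes that IFN-γ is known to induce, 5 of 19 tested were called higher in dKO and 0 lower. The shares over all genes tested were 2.15% and 1.17%. The median log2 fold change of the 19 was 0.36. The groups did not overlap for 9 of the 19 with dKO higher and for 3 with dKO lower (13.2% and 11.7% of all genes). Gbp3 rose from 46.0 ± 7.99 to 115 ± 13.2 CPM (1.32, SE 0.14, adjusted p = 6.10e-04), with 36.9, 51.8 and 49.2 CPM in WT and 131, 108 and 107 CPM in dKO. Gbp5 (40.5 ± 4.40 to 77.8 ± 6.55 CPM, 0.94, adjusted p = 0.00141), Gbp7 (194 ± 17.4 to 302 ± 18.4 CPM, 0.64, adjusted p = 0.00912) and Gbp2 (55.9 ± 1.44 to 74.2 ± 3.62 CPM, 0.41, adjusted p = 0.0430) encode further guanylate-binding proteins. Iigp1, an immunity-related GTPase, rose from 49.3 ± 5.58 to 96.2 ± 13.8 CPM (0.96, adjusted p = 0.00185). Gbp3, Gbp5 and Iigp1 were called with any 1 library left out and with the Y-linked covariate. Gbp7 was lost without dKO 1 (adjusted p = 0.0644) and Gbp2 under every omission (adjusted p 0.0610 to 0.159). The other 14 genes did not pass, among them B2m (0.23, adjusted p = 0.423) and Psmb8 (-0.19, adjusted p = 0.389) of antigen presentation and Irf1. Irgm1, another immunity-related GTPase, was lower in every dKO library than in any WT library (-0.42, adjusted p = 0.0981), as were Psmb8 and Ifi47. Without dKO 3, Irgm1 was called lower (-0.57, adjusted p = 0.0446). Type I interferons and IL-27 induce many of the same genes, and whether any cytokine set these levels was not tested.

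**Figure D4:**
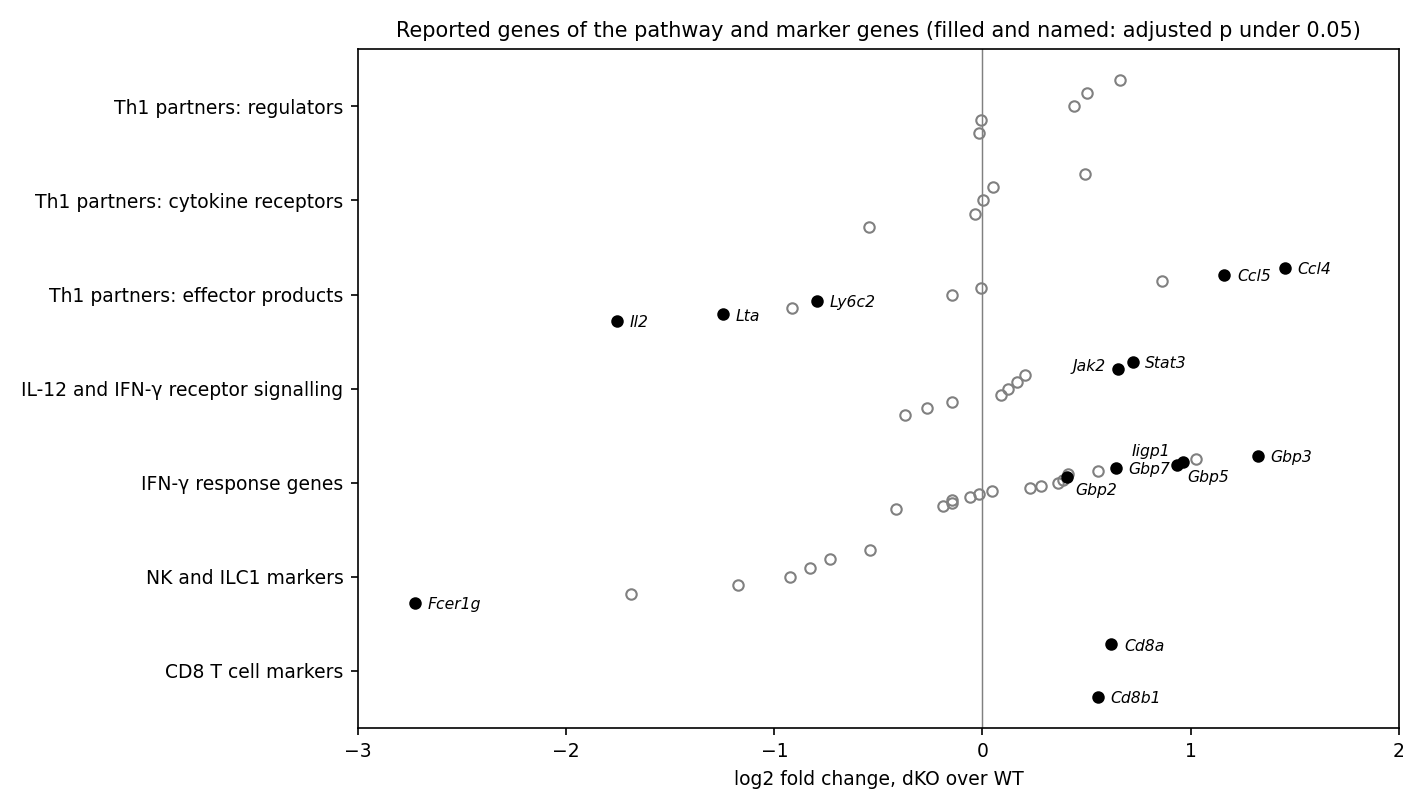
Log2 fold change of dKO over WT (x axis) for each reported gene of the other Th1 and IFN-γ pathway lists and of NK and CD8 T cell markers (rows); filled, named points have an edgeR adjusted p under 0.05. Il2, Lta and Ly6c2 lie to the left among the effector products, Gbp3 furthest to the right among the IFN-γ response genes at 1.32, and all 7 NK and ILC1 markers below 0.

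Marker transcripts of other cells that can make IFN-γ were also measured, although a CD4 T cell sort should remove NK cells and CD8 T cells. Of 10 NK and ILC1 markers, 7 were tested, and all 7 were below 0 in dKO (median log2 fold change -0.92). Fcer1g passed the test (4.19 ± 2.39 to 0.586 ± 0.277 CPM, -2.72, adjusted p = 0.0186), except without dKO 1 or dKO 2 (adjusted p 0.110 and 0.0927). The sum of the 10 markers was 86.7, 129 and 163 CPM in WT and 57.9 to 69.0 CPM in dKO, with WT 1 again nearest to dKO, and the defining marker Ncr1 was too low to be tested. Klrk1, which encodes the receptor NKG2D, is also expressed by T cells and made up most of that sum. It was 57.0, 86.4 and 105 CPM in WT and 46.3, 49.4 and 36.4 CPM in dKO (-0.92, adjusted p = 0.0742). Without WT 1, Klrk1 was called lower (-1.14, adjusted p = 2.12e-04), as were Klrb1c, Klra9 and Klre1 (adjusted p 0.0101 to 0.0196). Of all genes tested without WT 1, 2.32% were called lower. The CD8 T cell genes Cd8a (126 ± 11.7 to 194 ± 8.65 CPM, 0.62, adjusted p = 0.00866) and Cd8b1 (86.7 ± 9.52 to 127 ± 13.2 CPM, 0.55, adjusted p = 0.0236) were higher in dKO. Without dKO 1 their adjusted p was 0.0550 and 0.109, and Cd8b1 was also lost without WT 3 or dKO 3 (0.0910 and 0.0843). CD8 T cells and NK cells express Ifng, Tbx21, Eomes and Ccl5, and the part of either cell type in the levels of the Th1 genes was not tested.

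The marker of innate-like NKT cells that was tested, Zbtb16, was 8.42, 14.8 and 34.3 CPM in WT and 10.7 to 14.2 CPM in dKO (-0.62, adjusted p = 0.611). The summed B cell markers were 3.60 to 9.95 CPM and those of macrophages and Kupffer cells 2.07 to 5.72 CPM, with 5 of 12 of the latter (Adgre1, Vsig4, C1qa, C1qb and Marco) at 0 in all libraries. The summed hepatocyte markers were 7.87 to 16.8 CPM in WT and 22.1 to 33.9 CPM in dKO, most of it from Trf, and Alb was too low to be tested. Of the factors of other CD4 lineages, Foxp3, which defines Tregs, rose from 87.1 ± 22.1 to 194 ± 26.5 CPM (1.16, SE 0.18, adjusted p = 0.00954), while Gata3 of Th2 cells (0.29, adjusted p = 0.302) and Bcl6 of follicular helper cells (-0.01, adjusted p = 0.987) did not pass. A changed share of Tregs in the sorted cells and a changed level per Th1 cell cannot be told apart here.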

How the data were processed

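CD4 T cells sorted from the livers of WT and dKO mice on the choline-deficient, high-fat diet were profiled by single-end RNA-Seq, with 3 libraries per group. Raw read counts by gene symbol, as deposited by the authors, were the values tested, and a normalised table came with them. That table is named TPM, but its deposited values are CPM: 100% of them gave whole reads to within 0.01 reads when scaled by the library total, and it served as an alternative only. The design had assumed TPM. A deposited table of mapping rates was not used. The submitters' processing notes name cutadapt and Bowtie2 and the builds mm10 and GRCm39. The counter, its strand setting and all tool versions were not given in the sources used here. Reads of Eomes and Hopx and of their antisense neighbours Gm33460 and Hopxos, and of Il12rb2 and Serbp1, therefore cannot be told apart where they overlap. The same holds for Ifng and Gm49751 and for Stat4 and Gm28177 on the same strand, whatever the setting, and for Stat4 and the pseudogene Gm3940. Coordinates and exon lengths are from GENCODE M21 (GRCm38).

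Genes were kept by filterByExpr (minimum count 10, minimum total 15), which left 15694 of 27108 with a count. The groups were compared with edgeR 4.0.16 in R 4.3.3 (TMM factors 0.964 to 1.04, robust quasi-likelihood F-test, two-sided, no covariate), with Benjamini-Hochberg adjustment over all genes tested. Levels are counts over the scaled library size. The biological coefficient of variation was 14.5%. The study's methods call the replicates independent biological ones, the labels do not name animals, and the p-values cover only the variation among these 6 libraries. No library pair agreed within counting error (chi-square per degree of freedom 6.02 to 32.0). Alternatives were DESeq2 1.42.0, limma 3.58.1 (voom and log2(CPM + 1)), other scalings, no filter, the study's own thresholds (1.5-fold up or 0.5-fold down at an unadjusted p under 0.05), a replicate block and leaving out each library. Levels of Y-linked and of stress genes as covariates, and the reads recovered from the CPM table, were added after the data were seen. The fit was first tested on simulated data with known changes.

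The 10 genes and all lists were chosen with earlier results of these data known. Named are the 10 genes, each list's genes that passed the test, up to 3 of its most abundant genes, and the 3 genes most like Ifng and Tbx21. Tnf, Socs1, Cxcr6, Bcl6 and any other gene outside this rule were named after their values were seen. Upstream windows are from RefSeq. Some genes of the lists are not reported here, and counts are over those that are.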

Additional observations from a re-analysis of the deposited data

How the results depend on the processing

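The count of genes called higher in dKO was 337. It was 756 of 27108 genes with no filter on low counts, and 713 with the study's fold and unadjusted p thresholds applied to the edgeR fit. The study itself reports smaller counts in both directions at these thresholds. DESeq2 gave 492, and the stress gene level as a covariate gave 400. Leaving out each library in turn gave 90 to 447. The count of genes called lower was 183, against 560 with no filter, 102 with the Y-linked level as a covariate and 42 to 378 with each library left out. It was 236 with DESeq2, 207 with the stress gene level as a covariate and 215 at the study's thresholds. Of the 520 genes called with all libraries and 825 without WT 1, 461 were shared. Among the 10 Th1 genes, 0 were called higher, but 1 was with no filter (Eomes), with DESeq2 (Hopx), with the replicate block (Eomes) and at the study's thresholds (Hopx), and 0 to 1 with each library left out. The count called lower was 0, with 1 under no filter (Cxcr3), 1 with the stress gene level as a covariate (Ifng) and 0 to 3 with each library left out. Of the 170 log2 fold changes of the 10 genes under the alternatives, 155 kept their direction and their side of the threshold. A further 10 passed it in the same direction and 5 turned, all of Stat4. Its log2 fold change of 0.02 became -0.0085 with library totals only and ranged from -0.076 to 0.12 with each library left out. At the study's thresholds and with the recovered reads the fold changes were those of the main fit and could not turn. The study's thresholds were judged by their own cut. With the Y-linked level as a covariate, Jak2, Gbp2, Cd8b1 and Fcer1g were no longer called (adjusted p 0.0628 to 0.0717, edgeR). Newly called higher under it were Bhlhe40, Ccl3, Igtp, Tap1, Cd274 and Nr4a1 (adjusted p 0.0105 to 0.0391). With the stress gene level as a covariate, Gbp2 was lost (adjusted p = 0.0529). Il2rb, Ccl3, Irf8, Cxcl10, Igtp, Tap1, Cd274 and Gata3 were then newly called higher and Klrk1 lower (adjusted p 1.39e-04 to 0.0390). The causes were not tested.

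The replicate numbers did not pair the libraries, since the deviations from the group means of same-numbered libraries correlated at 0.05, 0.02 and -0.08. With the number as a replicate block, 307 genes were called higher and 184 lower. Eomes was then 0.55 (adjusted p = 0.0437, edgeR), Ifng -1.14 (adjusted p = 0.0938) and Tbx21 -0.60 (adjusted p = 0.133). Depth limits the sparse marker genes more than the Th1 genes, of which the least covered, Il12rb2, had 91 reads at the fewest (WT 1).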
